A study of Homo sapiens with 4 samples.

Results

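The ISG15 conjugation system was described through 7 genes, taken from the deposited matrix by symbol: the modifier ISG15, the activating enzyme UBA7, the conjugating enzyme UBE2L6, the ligases HERC5 and TRIM25, the ligase relative HERC6 and the protease USP18. All 7 were among the 27106 genes of the matrix, and all 7 were among the 19398 tested, those with a mean normalised read count of at least 10. Total RNA of THP-1 cells, a monocytic line from a human acute myeloid leukaemia, was sequenced at day 5. The 4 libraries form 2 groups: 2 from cells given an antisense oligonucleotide (ASO) against the long noncoding RNA SGOL1-AS1, and 2 from cells given a non-targeting ASO. All come from 1 cell line with no other allele or agent named, 1 column code covers both SGOL1-AS1 ASO libraries, and the labels do not say whether libraries of a group came from separate cultures. The p-values therefore rest on the spread between samples of a group, which may be technical.

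ISG15 is a ubiquitin-like protein that cells make in quantity after type I interferon. It is joined to other proteins in a cascade like that of ubiquitin: an E1 enzyme activates it, an E2 enzyme carries it, and an E3 ligase passes it to lysines of new proteins at the ribosome. USP18 takes it off again, and also sits on the interferon receptor and damps its signal. Genes of the cascade are themselves interferon-inducible in many human cells, monocytes among them.

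The 2 SGOL1-AS1 ASO columns were assigned by elimination, because the labels do not explain the code they bear, and every direction below rests on that. The target, listed under its present symbol SGO1-AS1, had 12 and 17 reads in the SGOL1-AS1 ASO libraries, against 24 and 21 in the non-targeting libraries, and a loss did not pass the test (limma, log2 fold change -0.48, 95% interval -1.26 to 0.29, adjusted p = 0.555). With 1 library left out its log2 fold change ran from -0.84 to -0.13, with -0.13 without SGOL1-AS1 ASO library 1. SGO1, the gene it overlaps, was at 0.03 (adjusted p = 0.84). The 10 monocytic markers fixed for THP-1 were all present, with summed normalised counts of 109373 to 113861 in the SGOL1-AS1 ASO libraries and 113247 to 119074 in the non-targeting libraries. Of these 10, CD4 and FCGR1A were called lower (20%) and 0 higher, against 3.40% lower over all genes tested. The median log2 fold change of the 10 was -0.11. PECAM1, listed as endothelial but also carried by monocytes, was called lower as well. Of 11 markers of other cell types, 7 have no row here, among them CD3E, MS4A1 and EPCAM. The other 4 summed to 16868 and 18999.5 in the SGOL1-AS1 ASO libraries, against 22015 and 22279 in the non-targeting libraries, nearly all of it PECAM1. Their part in the results below was not tested.

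All 7 genes of the system were lower in the SGOL1-AS1 ASO libraries, in each case with both values below both non-targeting values. By limma on log2(normalised count + 1), with Benjamini-Hochberg adjustment over all genes tested, 7 of 7 passed an adjusted p of 0.05 as lower and 0 as higher. Over all genes 3.40% were called lower and 0.851% higher, and 25.1% had both values below both non-targeting values. By edgeR on the recovered reads 7 of 7 members were called lower (2.87% of all genes) and by DESeq2 6 of 7 (1.95%). With the same total in every library 4 of 7 were called lower (1.51% of all genes), and after quantile normalisation 4 of 7 (1.72%), HERC5, HERC6 and TRIM25 being the ones lost both times. Among the 3223 genes with a mean at least as high as that of the lowest member, 8.19% were called lower. The members' log2 fold changes (SGOL1-AS1 ASO minus non-targeting) ran from -0.53 to -0.21 with a median of -0.35, beside a median of -0.01 over all genes tested. In percent of the non-targeting level the changes ran from -30.7% for USP18 to -13.6% for TRIM25. In bulk RNA, fewer cells expressing a gene and less of its RNA per cell cannot be told apart.

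**Figure D1:**
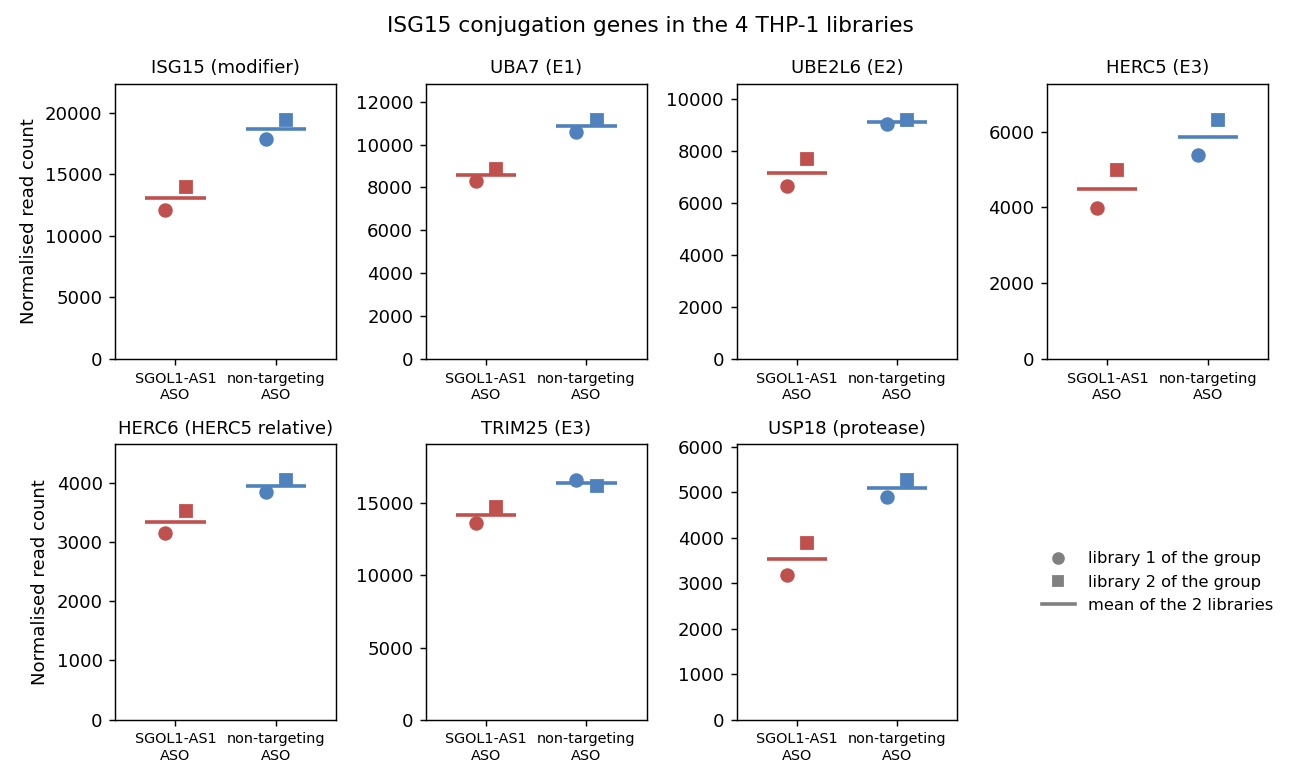
Normalised read count (y axis, from 0) of each member in the SGOL1-AS1 ASO and non-targeting libraries. Points are libraries and bars are group means. In all 7 panels both SGOL1-AS1 ASO points lie below both non-targeting points, and the gap is widest relative to the level for ISG15 and USP18.

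ISG15 (ENSG00000187608), the modifier, lies on the plus strand at chr1:1001138-1014540 (GRCh38). Its normalised count was 12125 and 13981 in the SGOL1-AS1 ASO libraries, against 17849 and 19433 in the non-targeting libraries. The groups stood well apart, with means of 13053 ± 1313 and 18641 ± 1119.8 (SD, n = 2 each) and a log2 fold change of -0.52 ± 0.06 (SE), 95% interval -0.64 to -0.39 (limma, adjusted p = 1.20e-05). Among the 660 genes called lower it ranked 23 by p and 102 by size of the fall. No stretch of 50 bases of its annotated transcripts occurs in a transcript of another gene.

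USP18 (ENSG00000184979), the protease that removes ISG15, lies on the plus strand at chr22:18149899-18177397. It stood at 3185 and 3895 normalised counts in the SGOL1-AS1 ASO libraries and at 4903 and 5263 in the non-targeting libraries. The groups did not overlap, and the log2 fold change of -0.53 ± 0.07 (SE) was the furthest below 0 of the 7 (limma, adjusted p = 6.49e-05), though its interval of -0.67 to -0.38 covers the ISG15 value. USP18 has a near-copy on the same chromosome, USP41, and 23% of the distinct 50-base stretches of its transcripts occur in USP41, so reads there could be assigned to either gene or dropped. USP41 was at 63.3 and 61.6 in the SGOL1-AS1 ASO libraries, against 83.5 and 71.5 in the non-targeting libraries (log2 fold change -0.30, adjusted p = 0.472), a small number beside that of USP18.

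The 2 enzymes that load ISG15 moved by nearly the same amount. UBA7 (ENSG00000182179; minus strand, chr3:49805207-49813946), the E1 that activates ISG15, had 8293 and 8842 normalised counts in the SGOL1-AS1 ASO libraries, against 10585 and 11165 in the non-targeting libraries. Both SGOL1-AS1 ASO values were the low ones, and the log2 fold change was -0.34 ± 0.05 (SE; limma, adjusted p = 0.000250). UBE2L6 (ENSG00000156587; minus strand, chr11:57551656-57568284), the E2 of the cascade, had 6668 and 7690 in the SGOL1-AS1 ASO libraries, against 9066 and 9225 in the non-targeting libraries. Here the non-targeting libraries lay close together and the SGOL1-AS1 ASO libraries were more spread, and the log2 fold change was -0.35 ± 0.06 (SE; adjusted p = 0.000648).

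HERC5, the main ISG15 ligase of human cells, and HERC6, whose mouse counterpart has that role, are neighbours on the plus strand of chromosome 4, with 14005 bases between the end of HERC6 (chr4:88378739-88443111, ENSG00000138642) and the start of HERC5 (chr4:88457117-88506163, ENSG00000138646). HERC5 stood at 3990.4 and 4995 normalised counts in the SGOL1-AS1 ASO libraries and at 5370.1 and 6316 in the non-targeting libraries. The groups were apart but each was widely spread, which gave the largest standard error of the 7 (log2 fold change -0.38 ± 0.08; limma, adjusted p = 0.00519). HERC6 had 3146 and 3516 in the SGOL1-AS1 ASO libraries, against 3846 and 4038 in the non-targeting libraries. Its fall was smaller, -0.24 ± 0.06 (SE; adjusted p = 0.0196). HERC5 lost its call under robust empirical Bayes (adjusted p = 0.430) and DESeq2 (0.429), and its log2 fold change was -0.22 without SGOL1-AS1 ASO library 1; that of HERC6 ended without SGOL1-AS1 ASO library 1 (0.126) or non-targeting library 2 (0.180).

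TRIM25 (ENSG00000121060; minus strand, chr17:56836387-56914080) is a ligase for ISG15 and for ubiquitin, and acts on the RNA sensor RIG-I. It had 13597 and 14723 normalised counts in the SGOL1-AS1 ASO libraries, against 16585 and 16163 in the non-targeting libraries. Its groups were apart, with the smallest fold change of the 7, at -0.21 ± 0.05 (SE), 95% interval -0.32 to -0.11 (limma, adjusted p = 0.0175). The call ended when SGOL1-AS1 ASO library 1 (adjusted p = 0.0839), non-targeting library 1 (0.248) or non-targeting library 2 (0.0805) was left out. DGKE, on the other strand at its start, shares 80 exonic bases with it, and no source used here gives the strand setting of the counting. DGKE was at 1588 normalised counts in the SGOL1-AS1 ASO libraries and 1537 in the non-targeting libraries. C17orf67, on the same strand, shares 132 exonic bases with TRIM25. It was at 219 in the SGOL1-AS1 ASO libraries and 231 in the non-targeting libraries. Of genes with no row in the matrix, AC015912.1 shares 538 exonic bases on the other strand and MIR3614 shares 86 on the same strand.

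Per length the members differ widely in level. In normalised counts per kilobase of annotated exon, ISG15 had 13871 ± 1395 in the SGOL1-AS1 ASO libraries and 19810 ± 1190 in the non-targeting libraries (SD, n = 2 each), the highest of the 7 in every library. UBE2L6 came next, at 3268 ± 329 in the SGOL1-AS1 ASO libraries and 4163 ± 51.2 in the non-targeting libraries, several times below the modifier it carries. UBA7 followed with 1885 ± 85.4 in the SGOL1-AS1 ASO libraries and 2393 ± 90.3 in the non-targeting libraries. USP18 had 1663 ± 236 in the SGOL1-AS1 ASO libraries and 2388 ± 119 in the non-targeting libraries, and TRIM25 had 1490.3 ± 83.8 in the SGOL1-AS1 ASO libraries and 1723 ± 31.4 in the non-targeting libraries. UBA7 and USP18 did not differ beyond their spread in either group, nor did USP18 and TRIM25 in the SGOL1-AS1 ASO group. At the low end HERC5 had 943 ± 149 in the SGOL1-AS1 ASO libraries and 1226 ± 140.3 in the non-targeting libraries, above HERC6 at 575 ± 45.2 in the SGOL1-AS1 ASO libraries and 680.5 ± 23.4 in the non-targeting libraries. The order of the 7 was the same in all libraries except for UBA7 and USP18, which changed places in non-targeting library 2. Exon length here joins the exons of every annotated transcript of a gene, 9501 bases for TRIM25 and 2129 for USP18. The order therefore depends on the annotation.

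Ratios between members, 6 in all, were chosen with the members' values known and are given as a description. The ratio of USP18 to ISG15 normalised counts was 0.263 and 0.279 in the SGOL1-AS1 ASO libraries, against 0.275 and 0.271 in the non-targeting libraries. Protease and modifier stood in overlapping proportion in both groups, and so did UBE2L6 and UBA7, with ratios of 0.804 and 0.870 in the SGOL1-AS1 ASO libraries and 0.857 and 0.826 in the non-targeting libraries. Ratios to TRIM25 differed more. ISG15 against TRIM25 was 0.892 and 0.950 in the SGOL1-AS1 ASO libraries, against 1.08 and 1.20 in the non-targeting libraries. USP18 against TRIM25 was 0.234 and 0.265 in the SGOL1-AS1 ASO libraries, against 0.296 and 0.326 in the non-targeting libraries. In both of these the groups did not overlap, ISG15 and USP18 being lower relative to TRIM25. Both pairs set the largest falls of the members against the smallest, which was known when they were chosen. HERC5 against HERC6 overlapped between groups, at 1.27 and 1.42 in the SGOL1-AS1 ASO libraries and 1.40 and 1.56 in the non-targeting libraries, while HERC5 against ISG15 did not, at 0.329 and 0.357 in the SGOL1-AS1 ASO libraries and 0.301 and 0.325 in the non-targeting libraries. The mean log2 ratio differed between groups by -0.14 for HERC5 against HERC6 and by 0.13 for HERC5 against ISG15. Overlap or separation thus did not follow the size of the shift. With 2 libraries against 2 an exact permutation test cannot go below a two-sided p of 0.333, and the ratios were given no test. Which genes kept step cannot be told from them.

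The 2 SGOL1-AS1 ASO libraries differed in how far the members lay from the non-targeting mean. Library 1 lay further in 7 of 7 members, with a median of -0.46 on the log2 scale (from -0.67 for USP18 to -0.27 for TRIM25). Library 2 had a median of -0.25 (from -0.41 for ISG15 to -0.15 for TRIM25). The non-targeting libraries lay within 0.12 of their mean in every member, HERC5 being the most spread. Library 1 was the lower of the pair in 455 of the 660 genes called lower (68.9%), and in 52.4% of all genes tested. It is also the library in which no gene of the matrix has under 2 reads. The members, at 3083 to 20656 reads in every library, are far above that.

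**Figure D2:**
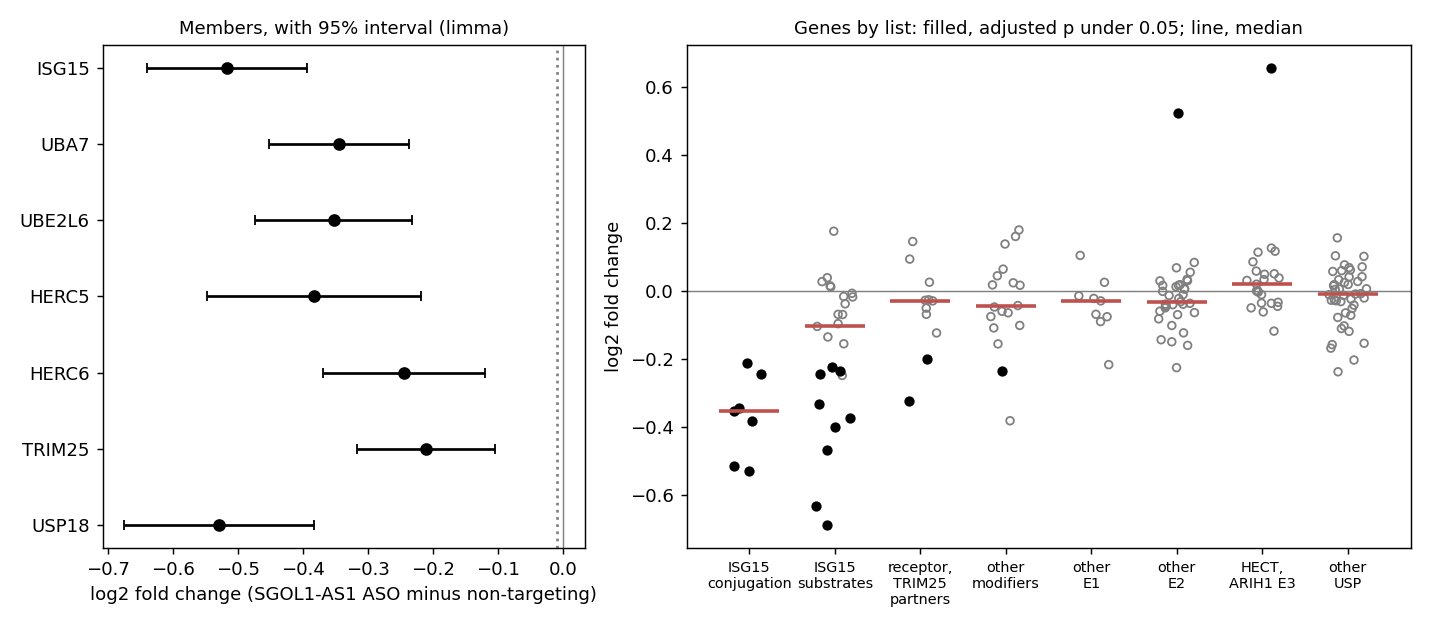
Left, log2 fold change (SGOL1-AS1 ASO minus non-targeting) of each member with its 95% interval by limma; the dotted line is the median of all genes tested. Right, the same quantity for each gene of the members and of the related lists, filled where the adjusted p is under 0.05, with the list median as a line. All 7 members lie between -0.53 and -0.21, while the medians of the other enzyme lists lie near 0.

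Upstream sequence was compared because the members fell together. Bases 250 to 1 before each RefSeq gene start (GRCh38.p14) were searched on both strands for the core of the interferon-stimulated response element, spelled GAAA, any 2 bases, GAAA (TTTC, any 2 bases, TTTC on the other strand), with overlapping matches counted. Of the 7 members, 5 had an entry: ISG15, UBE2L6 with 2 starts, HERC5, HERC6 and TRIM25. The 2 stretches below are shown because they hold the matches, in capitals; adjacent matches overlap and run together. The ISG15 stretch is chr1:1013347-1013466, plus strand, and the HERC5 stretch is chr4:88456969-88457088, plus strand, each from base -150 to base -31 of its RefSeq start, which for ISG15 lies inside the longer span of GENCODE 29 given above.
ISG15: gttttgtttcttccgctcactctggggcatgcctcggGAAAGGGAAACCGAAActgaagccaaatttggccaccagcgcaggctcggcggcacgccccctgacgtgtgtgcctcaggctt
HERC5: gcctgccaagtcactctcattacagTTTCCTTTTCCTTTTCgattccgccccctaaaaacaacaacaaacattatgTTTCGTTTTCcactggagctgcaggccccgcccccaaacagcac

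ISG15 holds 2 overlapping matches on the gene's strand, from base -113 to base -98 before the start. HERC5 holds 3 on the other strand, an overlapping pair from -125 to -110 and 1 from -74 to -65. In the UBE2L6, HERC6 and TRIM25 windows these letters were not found. Of all 35116 RefSeq promoters searched in the same way, 1061 (3.02%) held a match. Counted by gene symbol, 1014 of 27305 (3.71%) did. All 5 genes with an entry fell, with and without a match, and whether the size of the fall goes with a match was not tested. A match is a description of the sequence and not a measured binding site.

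**Figure D3:**
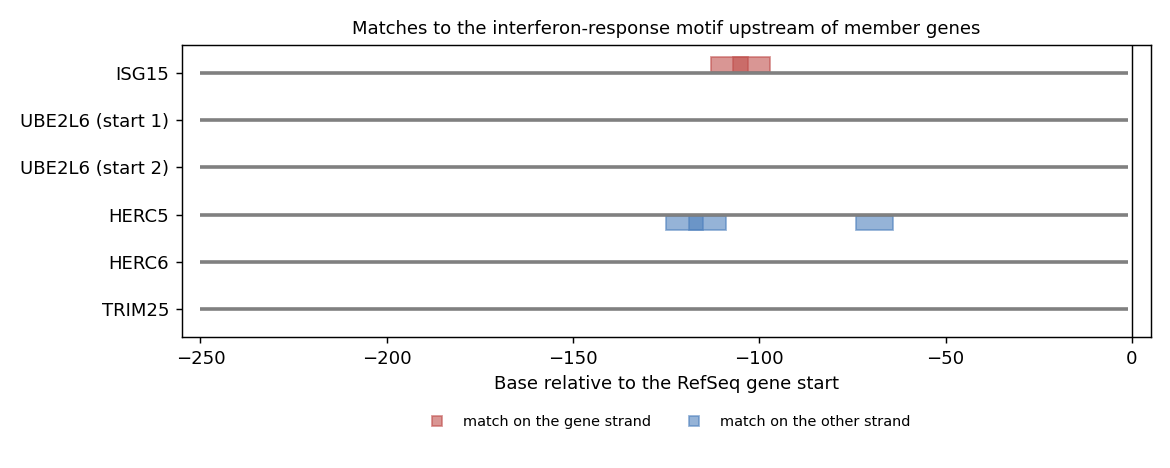
Matches to the interferon-response motif in the 250 bases before the RefSeq start of 5 members, drawn to scale on the x axis (bases from the start), above the line on the gene's strand and below it on the other. ISG15 has 2 overlapping matches and HERC5 has 3; the other lines hold none.

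Few genes of the rest of the ubiquitin and ubiquitin-like machinery passed the test. Of 129 other modifiers, E1 and E2 enzymes, HECT-type and ARIH1 ligases and USP proteases tested, 1 was called lower (0.775%) and 2 higher (1.55%), with a median log2 fold change of -0.01, against 3.40% and 0.851% over all genes. UBE2V1, a partner of the E2 UBE2N, rose at a low level, with 218 and 216 normalised counts in the SGOL1-AS1 ASO libraries, against 149.8 and 150.5 in the non-targeting libraries (0.53; limma, adjusted p = 0.0226), and it shares 37.9% of its 50-base stretches with the read-through gene TMEM189-UBE2V1. HERC3, a relative of HERC5 on the same chromosome, rose with 122 and 98.1 in the SGOL1-AS1 ASO libraries, against 72.0 and 65.9 in the non-targeting libraries (0.66; adjusted p = 0.0463). Both calls ended with DESeq2, and that of HERC3 also with edgeR (adjusted p = 0.0515), a minimum mean of 50 (0.0525) or no filter (0.0528). Leaving out either non-targeting library ended both, with adjusted p from 0.0875 for UBE2V1 to 0.184 for HERC3, and leaving out SGOL1-AS1 ASO library 1 ended that of HERC3 (0.239). With the same total in every library and after quantile normalisation the call of HERC3 (0.0547 and 0.0864) ended as well.

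By class, 0 of 9 other E1 enzymes and 0 of 43 other USP proteases passed in either direction by limma. Of 18 other modifiers 1 was called lower (5.56%) and 0 higher. Of 36 other E2 enzymes 1 was called higher (2.78%), and of 23 HECT-type and ARIH1 ligases 1 (4.35%), with 0 lower in both. Over all genes 3.40% were called lower and 0.851% higher, and classes this small cannot be told apart from those shares. The close relatives of the members named next were picked after their values were seen, and none was called by limma as reported. They do not stand for all relatives, since HERC3, given above, was called higher. UBE2L3, the E2 most like UBE2L6, was at 4659 ± 173 normalised counts in the SGOL1-AS1 ASO libraries and 4788 ± 105 in the non-targeting libraries (-0.04, 95% interval -0.15 to 0.07). UBE2E1, another E2 that can carry ISG15, and ARIH1, a ligase reported to pass it on, were both at -0.04 (adjusted p = 0.782 and 0.788). The large HERC proteins HERC1 and HERC2 were at 0.12 and 0.13 (adjusted p = 0.200 and 0.212), and HERC1 was called higher with the same total in every library (0.0423) and after quantile normalisation (0.0376). The differences between the members and these relatives were not tested.

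Among 25 tested genes whose proteins are reported to carry ISG15, 9 were called lower (36%) and 0 higher, with a median log2 fold change of -0.10, against 3.40% lower over all genes tested and 8.19% among those at least as high as the lowest member. PML, the organiser of nuclear bodies, had 7921 and 8301 normalised counts in the SGOL1-AS1 ASO libraries, against 10601 and 10403 in the non-targeting libraries (-0.37; limma, adjusted p = 6.89e-05). IFIT3 had 4997 and 7173 in the SGOL1-AS1 ASO libraries, against 9119 and 10228 in the non-targeting libraries (-0.69; adjusted p = 0.000112), and IFIT1, which binds viral RNA, 4853 and 6724 in the SGOL1-AS1 ASO libraries, against 8383 and 9372 in the non-targeting libraries (-0.63; 0.000128). In both, as in the members, SGOL1-AS1 ASO library 1 was the lowest of the 4. Of the others, 5 are named here, after their values were seen: the RNA sensors RIGI (-0.47) and IFIH1 (-0.40), the antiviral GTPase MX1 (-0.33), the kinase EIF2AK2 (-0.24) and the endosomal sorting protein CHMP5 (-0.23). Of those named, all but CHMP5 are well-known interferon-stimulated genes, so the list is not independent of the interferon programme. Among the 16 substrates not called were XPO1, PCNA and UBE2N, also named after their values were seen, with log2 fold changes of 0.01, -0.07 and 0.04.

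Several of these calls depended on the fit or on 1 library. With robust empirical Bayes the calls of IFIT3, IFIT1, RIGI and EIF2AK2 ended (adjusted p = 0.392, 0.386, 0.227 and 0.173), with unchanged fold changes, and with DESeq2 those 4 and CHMP5 (0.194, 0.183, 0.167, 0.495 and 0.0714). Without SGOL1-AS1 ASO library 1, EIF2AK2 (-0.13, adjusted p = 0.169) and CHMP5 (-0.14, 0.178) lost theirs, and IFIT3, IFIT1, RIGI and MX1 stood at -0.43, -0.40, -0.30 and -0.21. EIF2AK2 and CHMP5 were also not called without non-targeting library 2, with the same total in every library or after quantile normalisation, with adjusted p from 0.121 for EIF2AK2 to 0.313 for CHMP5.

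USP18 acts on the interferon receptor, whose chains were not among the genes called. IFNAR1 had 2581 and 3045 normalised counts in the SGOL1-AS1 ASO libraries, against 2833 and 2973 in the non-targeting libraries (-0.05, 95% interval -0.19 to 0.09), and IFNAR2 1160.4 and 1193 in the SGOL1-AS1 ASO libraries, against 1257 and 1146 in the non-targeting libraries (-0.03, interval -0.18 to 0.12). Of 11 genes of the receptor, of the integrin that binds secreted ISG15 and of TRIM25's partners, 2 were called lower (18.2%) and 0 higher, with a median of -0.03, against 3.40% and 0.851% over all genes tested. STAT2, which brings USP18 to the receptor, had 6427 and 7641 in the SGOL1-AS1 ASO libraries, against 8558 and 8972 in the non-targeting libraries (-0.32; limma, adjusted p = 0.00325), and stood at -0.20 without SGOL1-AS1 ASO library 1. ITGB2, the beta chain of the integrin LFA-1, had 22644 and 22512 in the SGOL1-AS1 ASO libraries, against 26035 and 25779.7 in the non-targeting libraries (-0.20; adjusted p = 0.0157), a call that ended without either non-targeting library (0.262 and 0.146) and under the scalings to the same total (0.0814), the same median (0.0507) and the same quantiles (0.0844). Its alpha chain ITGAL, named after its value was seen, was at 0.15 (adjusted p = 0.108), and was called higher with the same total in every library (0.0305), after quantile normalisation (0.0284) and without SGOL1-AS1 ASO library 2 (0.0340).

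The genes whose pattern was most like the members' were found by the Euclidean distance between log2 profiles over the 4 libraries, each centred on its non-targeting mean. The mean profile of the 7 was -0.47 and -0.27 in SGOL1-AS1 ASO libraries 1 and 2, with -0.04 and 0.04 in the non-targeting libraries. Nearest were the Fc receptor FCGR1A at a distance of 0.024, the peroxisomal protein TMEM135 at 0.033, the MHC class II chain HLA-DRB1 at 0.034, the ADP-ribosyltransferase PARP14 at 0.035 and the growth factor VEGFA at 0.040. Their log2 fold changes ran from -0.39 for HLA-DRB1 to -0.36 for TMEM135. Of the members themselves UBE2L6 lay nearest to the mean profile, at 0.048, and TRIM25 furthest, at 0.247. With 4 libraries this likeness mostly says that these genes were lower by a similar amount.

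**Figure D4:**
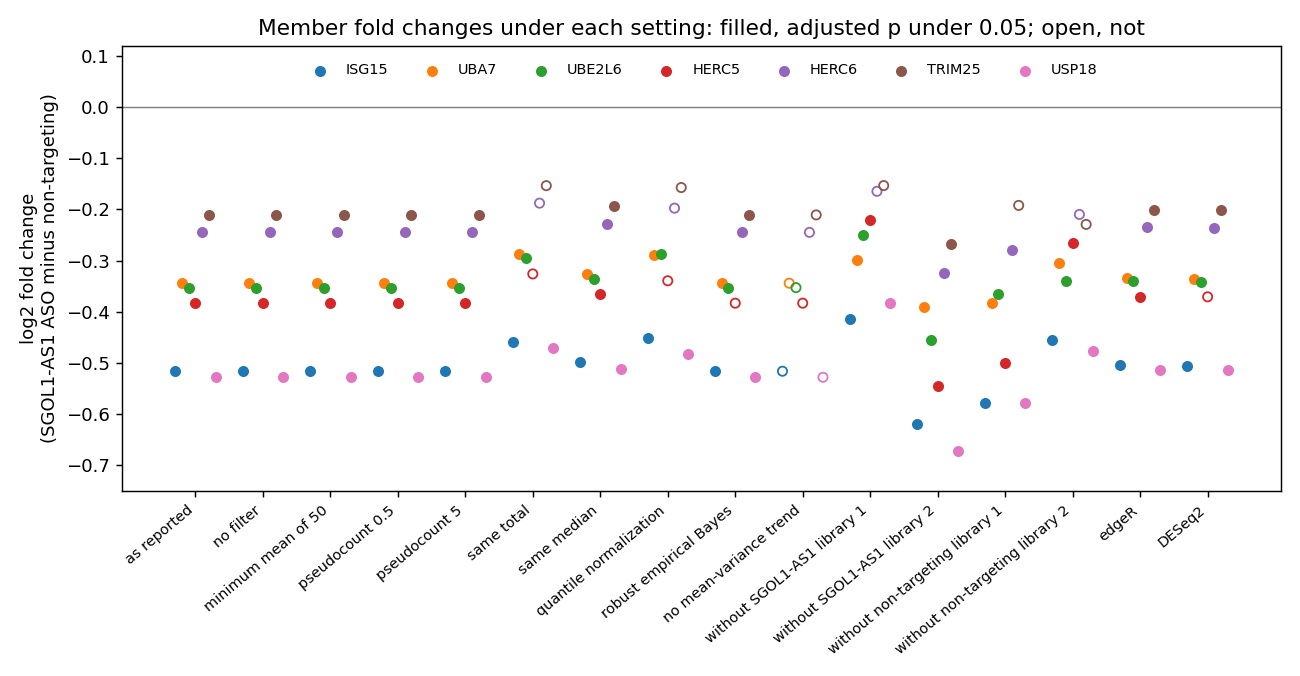
Log2 fold change (y axis, SGOL1-AS1 ASO minus non-targeting) of the 7 members as reported and under each of 15 other settings (x axis), filled where the adjusted p is under 0.05. All points lie below 0, and ISG15 and USP18 are the lowest of the 7 under every setting drawn.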

How the data were processed

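Extraction used the RNeasy Plus Mini kit and library preparation the NEBNext Ultra II kit, per the labels' protocols. STAR 2.5.1b, DESeq2 and GRCh38 are named, with no role given, per the submitters' processing notes; how reads were counted, and with which strand setting, is not given in the sources used here. What the authors deposited is a normalised signal: read counts over a size factor, 1 for each library. Dividing by its step gave whole reads for 100% of values (within 0.01 of a whole read), with totals of 48558537 and 41435922 in the SGOL1-AS1 ASO libraries and 50855150 and 51851314 in the non-targeting libraries. No gene has under 2 reads in SGOL1-AS1 ASO library 1, so any gene removed by such a filter is not analysed here. The SGOL1-AS1 ASO columns are numbered in column order and tied to no single sample.

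Symbols were matched by Ensembl identifier (26579 of 27106), positions, exon lengths and shared 50-base stretches from GENCODE 29, and upstream sequence from RefSeq. limma 3.58.1 (R 4.3.3; empirical Bayes with trend) was run on log2(value + 1) of 19398 genes with a mean of at least 10, adjusted by Benjamini-Hochberg, threshold 0.05. On this scale the fold changes of low genes are understated. Alternatives were other filters, pseudocounts, scalings and empirical Bayes settings, each library left out, and edgeR 4.0.16 and DESeq2 1.42.0 on the recovered reads; a group left with 1 library was taken to vary as the other does. The members and lists were chosen with earlier results of these data known. Named were the 7 members, the target and SGO1, USP41, up to 3 called genes of each list by smallest p and the 5 genes most alike; others are marked. A few called genes of the lists enter the counts but are not reported here by name.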

Additional observations from a re-analysis of the deposited data

How the results depend on the processing

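The 7 members were lower under all 15 alternatives run. ISG15 (from -0.62 to -0.41), USP18 (from -0.67 to -0.38), UBA7 (from -0.39 to -0.29) and UBE2L6 (from -0.46 to -0.25) kept their calls in 14 of 15; the exception was limma with no mean-variance trend, which called 0 genes lower and 0 higher (1159 and 1178 had an unadjusted p under 0.05; edgeR called 556 and 159). There ISG15 stood at -0.52, UBA7 at -0.34, UBE2L6 at -0.35, HERC5 at -0.38, HERC6 at -0.24, TRIM25 at -0.21 and USP18 at -0.53, with adjusted p from 0.324 to 0.465, and 0 genes were called in any list. With the same total in every library 4 members were called lower, HERC5 (-0.33, adjusted p = 0.0539), HERC6 (-0.19, 0.0978) and TRIM25 (-0.15, 0.0881) not. After quantile normalisation 4 were called, with HERC5 at -0.34, HERC6 at -0.20 and TRIM25 at -0.16. HERC5 was not called with robust empirical Bayes (-0.38) or DESeq2 (-0.37). With 1 library left out, 5 to 7 members were called, HERC6 ran from -0.33 to -0.16 and TRIM25 from -0.27 to -0.15. The cause of these losses was not tested.

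Over all genes 660 were called lower and 165 higher. The numbers were 293 lower with the same total, 334 lower after quantile normalisation, 291 higher with the same median, 379 lower and 66 higher by DESeq2, and 333 to 968 lower and 89 to 310 higher with 1 library left out. Of all calls 80% were lower, against 55.5% with the same total, 69.1% with the same median and 70.2% after quantile normalisation. No scaling moved the median of all genes by over 0.06.

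In the list of other conjugation genes, 0 were called lower with the same total and after quantile normalisation and 2 with the same median, 1 was called higher with no filter, a minimum mean of 50 or edgeR and 0 by DESeq2, and leaving out 1 library gave 0 to 4 lower and 0 to 2 higher. Of the ISG15 substrates 5 were called lower with robust empirical Bayes and 4 by DESeq2 (1.95% of all genes). With the same total in every library 6 were called lower (1.51% of all genes), and after quantile normalisation 6 (1.72%). Of the receptor and partner genes 1 was called lower with the same total, the same median and quantile normalisation, with 1 higher under the same total and quantile normalisation, and 1 to 2 lower and 0 to 1 higher with 1 library left out. Changes of sign were seen only in genes near 0 that no setting called: with the same total UBE2L3 (0.017), UBE2E1 (0.014), ARIH1 (0.021), IFNAR1 (0.0073) and IFNAR2 (0.029); after quantile normalisation UBE2L3 (0.0082), UBE2E1 (0.0035) and ARIH1 (0.013). With 1 library left out UBE2E1 ran from -0.12 to 0.033, IFNAR1 from -0.17 to 0.069, IFNAR2 from -0.095 to 0.038 and SGO1 from -0.0018 to 0.071. No paired analysis was possible because the columns of the 2 groups share 1 replicate number only. Depth does not limit the members, which had at least 3083 reads in every library; the target had 12 to 24.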
